A study of Mus musculus with 20 samples.

Results

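The genes described here are 9 members of the Wnt pathway, picked by symbol with earlier results of these data known. They are the secreted inhibitors Sfrp1, Sfrp2, Frzb and Dkk3, the ligands Wnt7a, Wnt7b and Wnt8b, and the targets Axin2 and Lef1. All 9 were found among the 27998 genes of the single-cell libraries and among the 24062 genes of the RNA-seq of cultured cells. Transcripts of single cells (scRNA-seq) and transposase cuts in their open chromatin (scATAC-seq) were counted in Nestin-EGFP+ cells sorted from the dentate gyrus (DG) of Nestin-EGFP mice at postnatal day 5 (P5), 12 weeks (12w) and 24 weeks (24w), with 1 library per age and assay. The reporter also marks vascular cells, so the sort is not restricted to neural stem cells (NSCs). The RNA-seq came from cultured NSCs infected with a lentivirus carrying an shRNA to Setd8, the enzyme that monomethylates histone H4 at lysine 20, or a scrambled shRNA, selected with puromycin and collected 3 days after infection. The labels give hippocampus as the source of these cultures. The study's methods describe NSCs of embryonic day 11 cortex and NSCs of adult hippocampus. Its RNA-seq methods do not name which were used. Both kinds were kept in basic fibroblast growth factor and epidermal growth factor. All of these cultures were therefore infected, selected and grown in both factors.

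Wnt ligands are lipid-modified secreted proteins that bind Frizzled receptors with the co-receptors Lrp5 and Lrp6. Binding stabilises beta-catenin, which enters the nucleus and acts with Lef and Tcf factors on target genes. Secreted Frizzled-related proteins (the Sfrp family and Frzb) bind Wnt ligands outside the cell and limit their action, and Axin2 is both a target and a negative regulator of the pathway. In the DG, Wnt signals are known to act on the proliferation of progenitors and on the making of granule neurons.

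The sequence before the start of Wnt8b is shown because this gene had its highest level in NSC-like cells in every library, and 2 windows of Axin2 because it is the classical target of Lef and Tcf factors. They are from RefSeq (GRCm38.p6), written 5′ to 3′ on the strand of the gene. The capitals mark CTTTG or its reverse complement CAAAG, the core of the Lef and Tcf motif, in the 250 bases before the start. The Wnt8b sequence lies at chr19:44493222-44493471 (plus strand).
Wnt8b: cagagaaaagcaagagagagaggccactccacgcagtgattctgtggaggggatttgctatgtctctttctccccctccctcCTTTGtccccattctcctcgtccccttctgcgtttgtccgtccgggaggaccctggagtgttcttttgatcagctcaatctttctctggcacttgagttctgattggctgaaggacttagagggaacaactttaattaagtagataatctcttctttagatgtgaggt
The 5-letter core was found on either strand in 48.6% of 32851 promoters of this length, so a match there is common. The longer CTTTGAT, which contains the core, was found on either strand within 1 kb of 23.5% of 21938 protein-coding starts. Of the 6 members with an entry (Sfrp2, Frzb, Wnt7a, Wnt8b, Axin2 and Lef1), Axin2 held it, 81 and 886 bases after its start, at chr11:108920416-108920444 and chr11:108921221-108921249 on the plus strand. The capitals below mark it.
Axin2 at 81: agccggctgcgCTTTGATaaggtcctggc
Axin2 at 886: cggccggcgcgCTTTGATgtgcggggcgg
These matches are letters only and say nothing of binding in these cells.

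After filtering, the P5, 12w and 24w scRNA-seq libraries kept 12932, 5266 and 2795 cells, with medians of 4292, 2269 and 2178 unique molecular identifiers (UMIs) per cell. The libraries shared between 26 and 87 cell barcodes in pairs. Cells were clustered without the genes of the Wnt pathway and named by fixed markers as NSC-like (1424, 415 and 108 cells at the 3 ages), astrocyte-like (AS-like, 3944, 337 and 116), neural progenitor-like (NPC-like, 1203, 242 and 44) and early and late immature neuron-like (IMN1-like, 435, 247 and 35, and IMN2-like, 1133, 499 and 73), beside oligodendrocyte precursors (OPC-like), ependymal, pericyte (PC-like), vascular smooth muscle (VSMC-like) and endothelial (EC-like) cells. Levels are pooled UMIs per 1e+06 UMIs of a class (CPM) with exact 95% Poisson intervals, which cover counting error only. The 12w library was female by its sex-linked transcripts (92.4% of cells), the 24w library male, and the P5 library mixed. Age, sex and library cannot be told apart.

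Frzb, which binds Wnt ligands outside the cell, was highest in NSC-like cells in each of the 3 libraries and was higher in both adult libraries. NSC-like cells of P5, 12w and 24w held 108 CPM (95% interval 99.9 to 117), 241 (216 to 268) and 255 (205 to 313). AS-like cells held 8.54, 86.6 and 65.5 CPM in the same order of ages. The adult levels were therefore apart from that of P5 in both classes, and the 2 adult libraries overlapped in their intervals. For NSC-like cells the 12w and 24w ratios to P5 came to 2.23 (1.95 to 2.55) and 2.36 (1.88 to 2.94). For AS-like cells they came to 10.2 (7.77 to 13.2) and 7.67 (4.62 to 12.1). The AS-like clusters differed in this, as given below. NPC-like cells went the other way, from 36.7 CPM at P5 to 17.0 and 15.2, with ratios of 0.46 (0.31 to 0.68) and 0.42 (0.13 to 0.98). IMN1-like cells held 10.3 CPM at P5 and 3.30 at 12w, and Frzb was not counted in them in the 24w library, where 0 of 201525 UMIs, with the limit taken as 3 UMIs, allows a level of up to 14.9 CPM.

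Dkk3, a secreted glycoprotein of the Dickkopf family whose action on Wnt signals is less settled than that of its relatives, was also higher in the adult libraries. Its levels in NSC-like cells, by rising age, were 112 CPM (104 to 121), 234 (210 to 261) and 255 (205 to 313). AS-like cells held 73.3 CPM (69.4 to 77.3), 239 (211 to 271) and 209 (162 to 265). The P5 level was below both adult intervals in each class, and no such gap was seen in NPC-like cells, at 27.6, 28.1 and 21.3 CPM. Ratios to P5 were 2.09 (1.82 to 2.38) and 2.27 (1.81 to 2.83) in NSC-like cells and 3.27 (2.85 to 3.74) and 2.85 (2.197 to 3.65) in AS-like cells. Ependymal cells, which line the ventricle, carried it as well, at 117, 219 and 135 CPM.

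Sfrp1 and Sfrp2, which bind Wnt ligands through a Frizzled-like domain, had their highest levels in different classes. Sfrp1 was highest among the neural classes in NSC-like cells, at 63.6 CPM (57.4 to 70.2), 68.9 (55.9 to 84.0) and 52.6 (31.7 to 82.2) at the 3 ages, with intervals that overlap. NPC-like cells held 46.8, 46.8 and 42.7 CPM, IMN1-like cells 27.1, 47.8 and 29.8 CPM, and IMN2-like cells 25.8, 51.04 and 27.8 CPM. At 12w the IMN1-like interval (36.3 to 61.8) overlapped that of NSC-like cells, and at 24w the NPC-like level lay within it. The 12w level was above P5 in IMN1-like, IMN2-like and AS-like cells, with ratios of 1.76 (1.22 to 2.54), 1.98 (1.48 to 2.65) and 1.93 (1.27 to 2.84), and the intervals of the 24w ratios included 1 in all 3. By rising age, ependymal cells held 82.6 CPM (68.3 to 99.1), 105 (54.3 to 183) and 30.03 (12.97 to 59.2), the last of these below the P5 interval. Sfrp2 was instead a gene of PC-like cells, the contractile cells of capillaries, at 69.1 CPM (59.95 to 79.2), 221 (208 to 235) and 139 (127 to 152), and of OPC-like cells at P5, at 49.9 CPM (45.2 to 55.02). The main OPC-like cluster of P5 (1705 cells) held Sfrp1 as well, at 29.8 CPM (25.2 to 35.0). In the neural classes Sfrp2 lay between 2.06 and 10.4 CPM. The droplets of 10 to 100 UMIs, which hold free RNA, carried Sfrp2 at 58.4 CPM at 12w and 46.9 at 24w, and free RNA was estimated at 7.26% to 13.5% of the UMIs of the adult neural classes (the P5 file lists no such droplets). That estimate gave 4.24 to 6.33 CPM of Sfrp2 in the adult neural classes, where 3.30 to 10.4 CPM were measured from at most 11 UMIs a class, and the interval of each measured level included its estimate. The part of free RNA in the P5 levels was not tested.

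**Figure D1:**
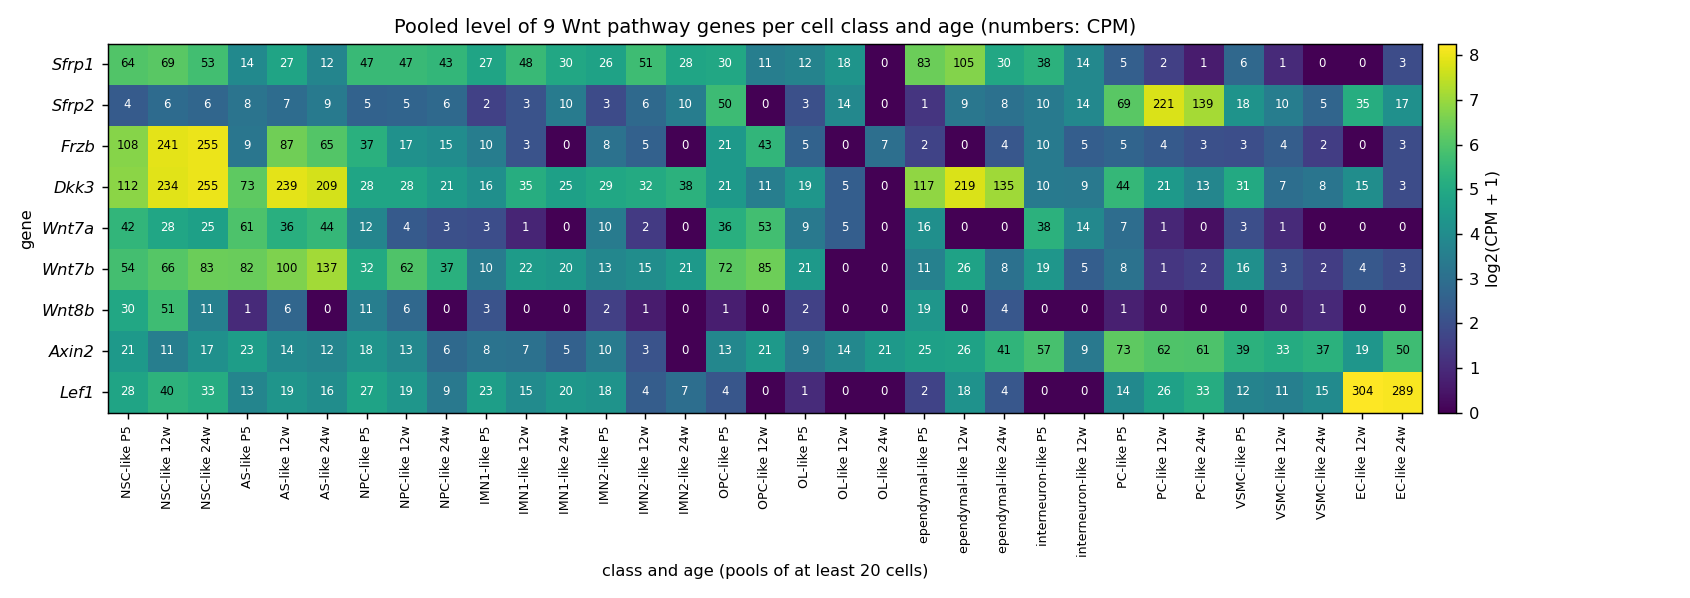
Pooled level (CPM, colour on a log2(CPM + 1) scale, numbers in CPM) of the 9 genes (rows) in each class and age with at least 20 cells (columns). Frzb and Dkk3 are bright in NSC-like and AS-like cells of the adult libraries, Sfrp2 in PC-like cells and Lef1 in EC-like cells.

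Of the ligands, Wnt7a and Wnt7b, which signal to endothelial cells of the brain among others, were highest of the neural classes in AS-like cells at every age. Wnt7a in AS-like cells was 61.0 CPM (57.4 to 64.6), 36.3 (25.8 to 49.7) and 43.7 (23.9 to 73.3) by rising age. Wnt7b in AS-like cells was 82.1 CPM (78.0 to 86.4), 99.7 (81.7 to 120) and 137 (99.7 to 184). In AS-like cells the ligands thus differed in direction, Wnt7a being lower at 12w and Wnt7b higher at 24w than at P5, each by less than 2-fold. NSC-like cells held 41.8, 28.4 and 24.9 CPM of Wnt7a and 54.0, 66.1 and 83.1 CPM of Wnt7b. Their adult Wnt7a levels lay within the AS-like intervals. OPC-like cells at P5 carried both, at 36.3 CPM of Wnt7a and 71.6 of Wnt7b. The ratio of Wnt7b to P5 at 12w was larger in NPC-like cells, at 1.96 (1.56 to 2.45), and in IMN1-like cells, at 2.25 (1.252 to 4.08), while at 24w it was 1.16 (0.59 to 2.05) and 2.01 (0.51 to 5.86). In NPC-like cells Wnt7a was lower than at P5, with ratios of 0.33 (0.13 to 0.70) at 12w and 0.24 at 24w, where 1 UMI was counted. In IMN2-like cells Wnt7a was 9.91 CPM at P5 and 1.65 at 12w, and 0 UMIs were counted at 24w.

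Wnt8b, a ligand of the medial wall of the developing cortex, was highest in NSC-like cells in each library. By rising age, NSC-like cells held 29.8 CPM (25.6 to 34.5), 51.1 (40.01 to 64.4) and 11.1 (3.02 to 28.4), from 181, 72 and 4 UMIs. AS-like cells of P5, with more cells, held 0.985 CPM (0.584 to 1.56). Ependymal cells of P5 held 19.2 CPM (12.7 to 28.0, from 27 UMIs), an interval that overlaps that of NSC-like cells, and 0 and 1 UMIs were counted in them in the adult libraries. NPC-like cells held 10.7 CPM at P5 and 5.85 at 12w, with 0 UMIs in the 24w library. The adult libraries stood on opposite sides of P5 in the pool of NSC-like cells, with ratios of 1.72 (1.29 to 2.27) and 0.37 (0.10 to 0.97), the latter from 4 UMIs. The NSC-like clusters differed in Wnt8b, as given below.

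Axin2 at each age and Lef1 in the adult libraries, both read here as targets, were highest outside the neural classes. Axin2 was highest in PC-like cells, at 73.4 CPM (64.0 to 83.8), 62.4 (55.5 to 70.0) and 61.3 (53.5 to 69.8). In NSC-like cells Axin2 was 20.6 CPM (17.1 to 24.5), 10.7 (5.96 to 17.6) and 16.6 (6.10 to 36.2), lower at 12w by a ratio of 0.52 (0.28 to 0.89) and not apart from P5 at 24w. Lef1 was highest in EC-like cells, with 304 CPM (241 to 379) and 289 (236 to 351) in the adult libraries, the P5 pool being under 20 cells. Among the neural classes Lef1 was highest in NSC-like cells, at 27.5 CPM (23.5 to 32.0), 39.8 (30.0 to 51.7) and 33.2 (17.2 to 58.1). NPC-like cells held 26.6 CPM at P5 and IMN1-like cells 19.8 at 24w, each within the NSC-like interval of that age. IMN2-like cells held less of both at 12w, with ratios of 0.33 (0.12 to 0.79) for Axin2 and 0.24 (0.10 to 0.50) for Lef1. At 24w these rested on 0 and 2 UMIs.

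By a rule of size (at least 2-fold from P5 in the same direction at 12w and 24w, with at least 20 UMIs in the higher pools), 2 members were higher and none lower in NSC-like cells, Frzb and Dkk3. Of all 11137 genes that could be compared there, 3.07% were higher and 6.23% lower. In AS-like cells the same 2 members were higher, where 3.04% of 12612 genes were higher and 10.2% lower. In NPC-like cells Frzb and Wnt7a were lower, against 5.55% of genes. In IMN1-like cells Frzb was lower, against 2.90%, and in IMN2-like cells Wnt7a, Axin2 and Lef1, against 4.33%. Except for Frzb in NPC-like cells, the intervals of these lower members at 24w included 1. Thinning every cell to 1000 UMIs left 1 member past the rule in NSC-like cells (Frzb at 24w came to a ratio of 1.77), as did setting each adult library against P5 cells of its own sex (Dkk3 at 12w came to 1.87). The members were chosen with earlier results of these data known, so their counts beside the shares of all genes are description, not a test. No p-value is given because each age is 1 library.

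**Figure D2:**
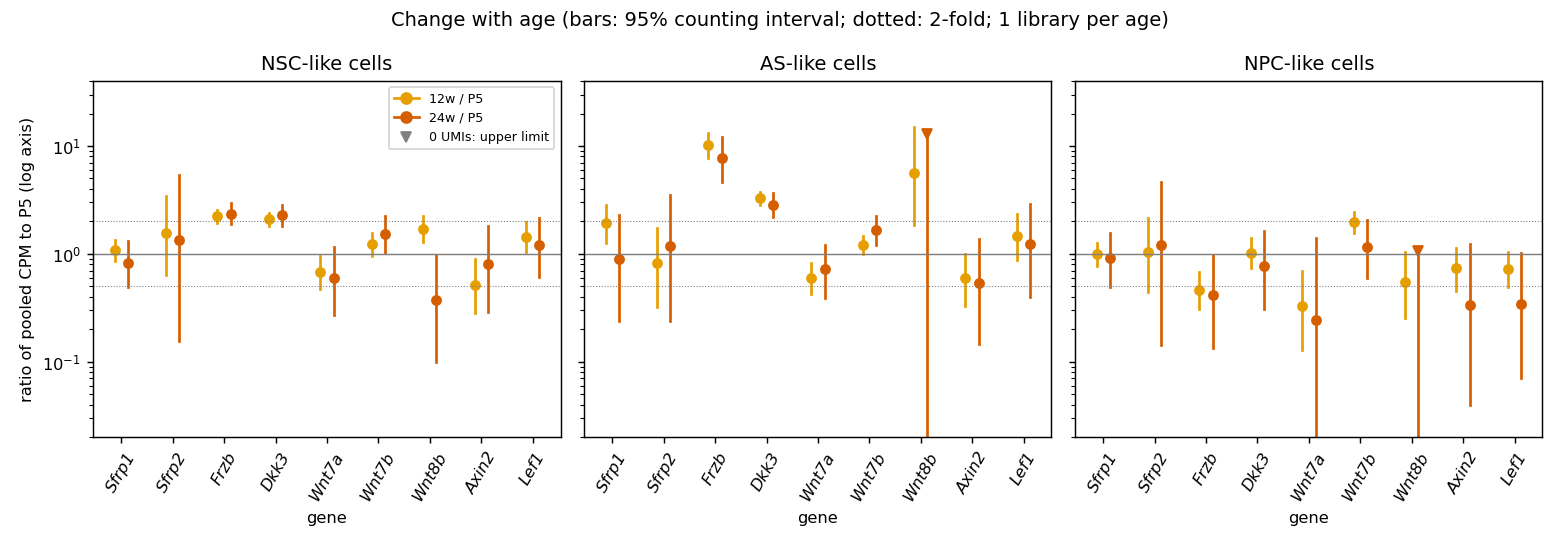
Ratio of pooled CPM to P5 (log axis) for each gene in NSC-like, AS-like and NPC-like cells, at 12w and 24w, with 95% counting intervals. Frzb and Dkk3 lie above 2 in NSC-like and AS-like cells, and Frzb lies below 0.5 in NPC-like cells.

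The classes were made of clusters in which the members differed, and the share of each cluster changed between libraries. NSC-like cells were mainly a cluster led by Gdf10 (528, 131 and 30 cells at the 3 ages), called the Gdf10 cluster here, and a cluster led by Ass1 (769, 281 and 76 cells). A smaller cluster also led by Gdf10 (127, 3 and 2 cells) was almost all of P5, where it held 277 CPM of Frzb and 173 of Dkk3, and has no adult pool to compare. In the Gdf10 cluster Frzb was 216 CPM (198 to 235), 263 (221 to 311) and 308 (214 to 428) by rising age. In the Ass1 cluster it was 12.7 CPM (9.18 to 17.2), 226 (196 to 260) and 223 (167 to 290). Ratios to P5 were 17.8 (12.7 to 25.4) and 17.5 (11.5 to 26.8) in the Ass1 cluster, against 1.22 (1.002 to 1.47) and 1.42 (0.98 to 2.01) in the Gdf10 cluster, and the intervals of the clusters did not overlap. Wnt8b at P5 was likewise 61.4 CPM in the Gdf10 cluster and 2.12 in the Ass1 cluster, and 78.7 and 31.8 at 12w. At 24w it was 17.6 and 4.12 CPM, from 2 and 1 UMIs. Lef1 was 48.7 CPM in the Gdf10 cluster and 11.5 in the Ass1 cluster at P5, and 30.7 and 44.3 at 12w. Dkk3 had like ratios in both clusters, 1.96 (1.54 to 2.48) and 2.47 (1.61 to 3.65) in the Gdf10 cluster and 2.199 (1.86 to 2.60) and 2.18 (1.64 to 2.86) in the Ass1 cluster.

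Among the AS-like clusters, the one led by Fam212b (1232, 114 and 34 cells) held Frzb at 9.97, 145 and 160 CPM. The cluster led by Gjb6, a connexin of astrocytes (849, 140 and 48 cells), held 4.58, 41.1 and 0 CPM. Its 24w interval, from 0 UMIs, reached 27.1 CPM. Other members high in NSC-like cells were also higher at 12w than at P5 in the Fam212b cluster. Sfrp1 went from 13.1 to 54.3 CPM, Lef1 from 7.01 to 38.8 and Wnt8b from 0.623 to 15.5, the last from 4 and 6 UMIs. With clusters drawn at resolution 0.4, NSC-like cells numbered 1425, 469 and 119, more in the adult libraries than at 0.8. Which cells moved between classes was not tested. A cluster led by haemoglobin genes (932, 60 and 28 cells) and a cluster led by Serpinf1 (931, 23 and 6 cells) were mostly of P5. Dkk3 was higher at 12w in both the Fam212b cluster, at 86.5 CPM at P5 and 274 at 12w, and the Gjb6 cluster, at 58.0 and 224. NPC-like cells were a cluster led by Hist1h2ap (700, 162 and 27 cells) and one led by Cenpa (503, 80 and 17). Frzb in the Hist1h2ap cluster was 31.5 CPM (26.8 to 36.8), 21.5 (13.8 to 32.0) and 19.7 (5.36 to 50.4), with intervals that overlap. In the Cenpa cluster it was 42.6 (36.7 to 49.1) at P5 and 8.40 (2.73 to 19.6) at 12w, from 5 UMIs.

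**Figure D3:**
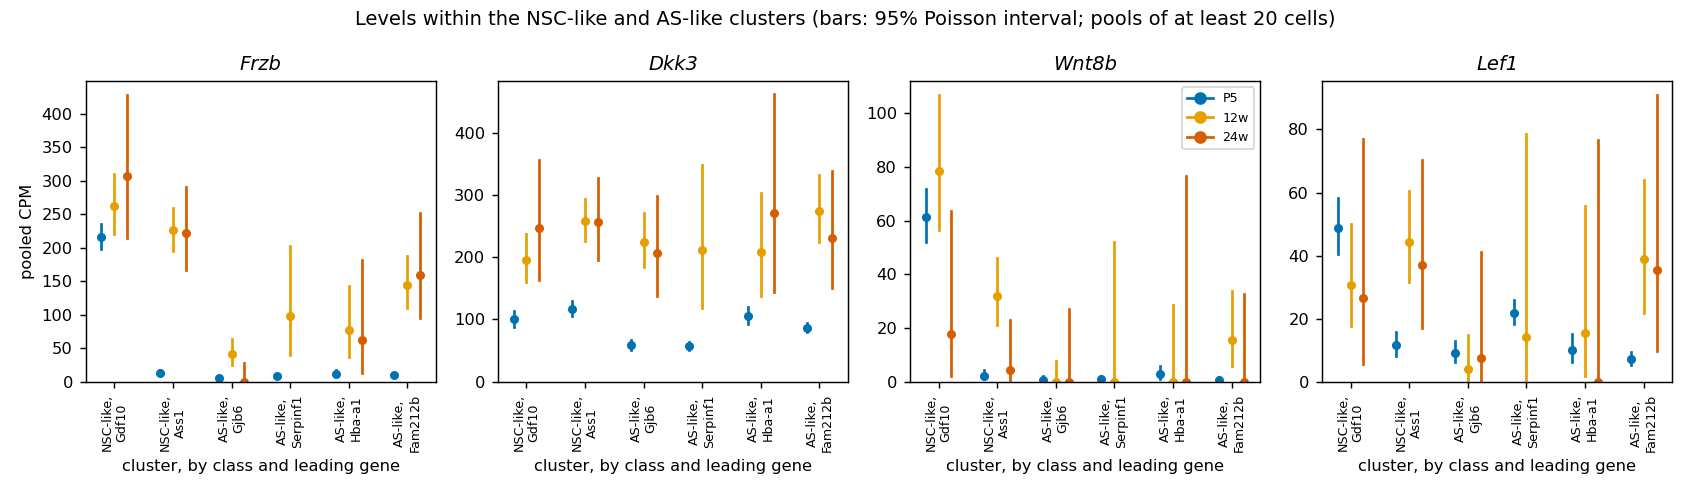
Pooled CPM of Frzb, Dkk3, Wnt8b and Lef1 in each NSC-like and AS-like cluster with at least 20 cells at 12w (named by its leading gene) and age, with 95% Poisson intervals, for pools of at least 20 cells. Frzb of P5 is high in the Gdf10 cluster and low in the Ass1 cluster, while Dkk3 is higher at 12w than at P5 in each cluster shown.

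The wider pathway was read from lists of ligands, inhibitors, receptors, the R-spondin branch, secretion factors, transducers, nuclear factors and feedback targets. These lists also hold the members, which are counted in them again. The lists too were chosen with earlier results of these data known. In NSC-like cells 6 of 9 feedback targets that could be compared were lower by the rule of size and none higher, where 6.23% of all genes were lower. In 3 of the 6 both intervals were clear of a ratio of 1, as in 293 lower genes of all 11137. The median ratio of the 9 was 0.29 at 12w and 0.42 at 24w, beside 1.02 at both over all genes. With genes of 0 UMIs set to the limit of 3 UMIs, which for 2 of the 9 lay above their P5 level in the small 24w pool, the median log2 ratios were −1.37 and −0.31, beside 0.03 and 0.10. Of the 6, Ccnd1, the cyclin that drives cells into the cycle, went from 78.2 CPM at P5 to 22.7 and 16.6. The list is thus not of pathway regulators only. Nkd1, an inhibitor of Dishevelled, went from 29.3 to 11.4 and 11.1 CPM, and Sp5, a transcription factor, from 26.2 to 4.97 and 11.1, where the interval of the 24w ratio included 1. Of the other lists in NSC-like cells, 2 of 6 inhibitors were higher, the members Frzb and Dkk3, and 1 was lower. Lower too were 2 of 12 receptors, 2 of 4 genes of the R-spondin branch and 1 of 10 nuclear factors. None of 4 ligands, 2 secretion factors and 12 transducers passed the rule. Both higher inhibitors, 1 of the R-spondin branch and the nuclear factor had both intervals clear of 1, and the lower inhibitor and the receptors did not. The secretion factor Wls had ratios of 4.31 (2.87 to 6.49) and 3.30 (1.49 to 6.57) in NSC-like cells, but was under the minimum of 20 UMIs at 24w, with 10. Tcf7l1, a Tcf factor that mostly represses, went from 21.4 to 8.52 and 2.77 CPM, and the R-spondin Rspo3 from 13.2 to 0.71 and 0. In AS-like cells, where 3.04% of genes were higher and 10.2% lower, 1 of 2 secretion factors was higher. Of 6 genes of the R-spondin branch 1 was higher and 3 lower. Of 9 inhibitors 2 were higher, again Frzb and Dkk3, and 5 lower. Also lower were 2 of 5 ligands, 3 of 8 feedback targets, 1 of 15 receptors and 2 of 12 transducers. None of 12 nuclear factors was lower. Of these lower genes, 1 of the R-spondin branch, 1 ligand, 2 feedback targets, 1 transducer and none of the inhibitors and receptors had both intervals clear of 1. Among all 12612 genes, 490 were lower with both intervals clear of 1. Wls, which carries Wnt ligands to the cell surface, was the secretion factor, at 7.50, 40.1 and 81.1 CPM, and higher too was the R-spondin receptor Lgr4, at 33.9, 168 and 200 CPM, while Wnt5a was lower, at 17.7, 5.59 and 3.12. In NPC-like cells 4 of 8 feedback targets were lower, against 5.55% of genes, among them Tnfrsf19, at 89.6, 15.8 and 21.4 CPM. In 3 of the 4 both intervals were clear of 1, as in 228 lower genes of all 11533. The other lists in NPC-like cells had 2 of 10 receptors and 1 of 12 transducers lower, beside the members Wnt7a and Frzb. In IMN1-like cells 2 of 4 feedback targets were lower, 1 of 9 nuclear factors, 1 of 2 ligands and 1 of 3 inhibitors (Frzb), where 2.90% of genes were lower. None of these had both intervals clear of 1, beside 91 lower genes of all 8582 that did. In IMN2-like cells 4 of 5 feedback targets were lower, against 4.33% of genes. In 1 of them both intervals were clear of 1, as in 168 lower genes of all 10011. The Tcf factor Tcf7l2 was higher in IMN2-like cells, at 15.6, 66.4 and 111 CPM, where 1.63% of genes were higher. Of the other lists there, 1 of 10 nuclear factors (Lef1, which the list of feedback targets also holds), 1 of 3 ligands (Wnt7a), 1 of 7 receptors and 1 of 2 genes of the R-spondin branch were lower, none with both intervals clear of 1.

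The genes whose log2(CPM + 1) was most like that of each member over 33 pools of class and age, among 12411 genes, are given as a description, since pools of 1 library share depth and free RNA. Frzb was most like Fam69c (Pearson r of 0.82) and Rhcg (0.82), a marker used to name NSC-like cells. Wnt8b was most like Glo1 (0.78) and Tfap2c (0.76), the latter also a naming marker, and Dkk3 was most like Pla2g7 and Slc25a18 (0.89 each). Wnt7a was most like the Frizzled receptor gene Fzd9 (0.92) and Cspg5 (0.91), and Wnt7b like Nim1k (0.89) and Slc1a3 (0.88), a glutamate transporter of astrocytes. Sfrp1 paired with Srgap3 and Dmrta2 (0.89 each), Sfrp2 with Chp2 (0.74) and Plekhg2 (0.71), Axin2 with Alg14 (0.81) and Gatad1 (0.80), and Lef1 with Kank3 (0.85) and Dach1 (0.83).

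Open chromatin was read as counts in peaks within 1 kb of each start, scaled to 1e+06 counts in peaks, in the cells that took a label from the RNA classes of the same age with a score of at least 0.5, which were 80.6%, 93.2% and 98.2% of the 8788, 12638 and 6041 cells kept. Peak widths differed between ages (the Axin2 peak covered 11829 bases at P5 and 24857 at 24w), so classes are compared within an age only. At Frzb, NSC-like cells had the highest neural value at every age, 49.7 (45.9 to 53.6), 51.8 (48.1 to 55.7) and 42.1 (37.4 to 47.2), against 25.2 (23.8 to 26.6), 15.9 (12.8 to 19.5) and 23.2 (17.5 to 30.2) in AS-like cells. The intervals of these 2 classes did not overlap at any age. Against the other neural classes the NSC-like value stood apart at 12w, whereas its interval overlapped that of IMN1-like cells at P5, at 42.8 (38.4 to 47.6), and those of IMN1-like, IMN2-like and NPC-like cells at 24w, at 36.8 (29.03 to 45.97), 34.1 (30.9 to 37.6) and 32.3 (25.9 to 39.7). At Wnt8b a peak was called at P5 only, where NSC-like cells had 12.9 (11.04 to 15.02) and AS-like cells 3.26 (2.79 to 3.79), while ependymal cells, from 39 cells, had 13.7 (8.45 to 20.9). At the other 2 ages no peak was listed within 1 kb of its start, so its openness there was not measured.

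At Dkk3 the neural classes lay close together, from 21.6 to 28.2 at P5. Ependymal cells had 36.4 (27.5 to 47.3), 48.0 (43.8 to 52.5) and 63.6 (56.8 to 71.0) at the 3 ages. Their interval was above those of the neural classes at 12w and 24w. At P5 it overlapped those of NSC-like cells, at 28.2 (25.4 to 31.2), and of IMN1-like cells, at 26.0 (22.6 to 29.7). PC-like and VSMC-like cells of P5 had 40.8 (36.1 to 46.0) and 39.4 (28.0 to 53.9). At Wnt7a, NSC-like and AS-like cells (60.7 and 54.8 at P5) lay above IMN1-like and IMN2-like cells (24.0 and 24.9). At Sfrp2, PC-like cells had 56.6, 51.1 and 49.4, above every neural class at each age. At Lef1, EC-like cells had 228 (202 to 258) at 12w. NSC-like or NPC-like cells had the highest neural value at Axin2 at each age, the peak being wide, and NPC-like cells at Wnt7b. At both genes the interval of the highest class overlapped that of another neural class at every age. At P5, Wnt7b was 37.8 (34.8 to 41.0) in NPC-like cells and 36.4 (34.8 to 38.1) in AS-like cells.

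**Figure D4:**
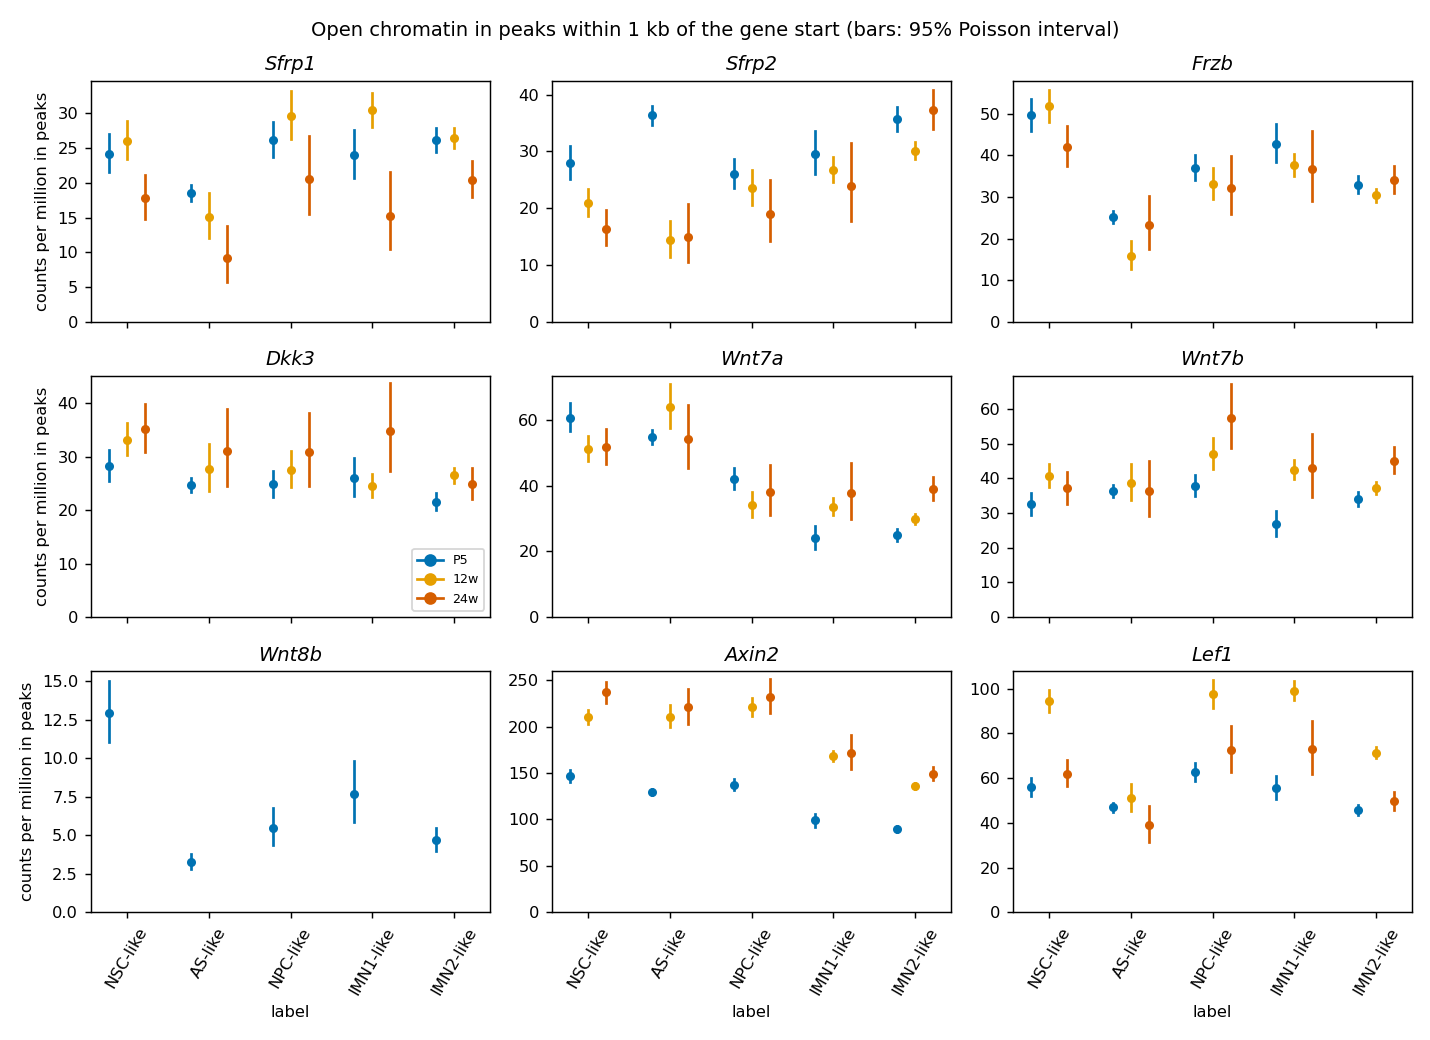
Counts in peaks within 1 kb of the start of each gene, scaled to 1e+06 counts in peaks, for the neural labels at 3 ages, with 95% Poisson intervals, where a peak was listed. Frzb is highest in NSC-like cells at each age and Wnt8b has values at P5 only.

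In the cultured NSCs, expression values (length-scaled transcript counts that sum to 1e+06, TPM) were read in 4 of 6 RNA-seq samples, since the files of the samples labelled Ctrl_1 and Ctrl_2 held gene symbols and lengths. Setd8 itself was 154 TPM in the library labelled Ctrl_3, 143 in that labelled Setd8KD_1, 143 in that labelled Setd8KD_2 and 36.4 in that labelled Setd8KD_3. The targeted gene thus goes against the labels Setd8KD_1 and Setd8KD_2. Matched by their values to columns named elsewhere by the submitters, the libraries labelled Ctrl_3, Setd8KD_1 and Setd8KD_2 are controls and that labelled Setd8KD_3 is a knockdown. The comparison was therefore of 3 control libraries with 1 knockdown library, and every direction below rests on this reading. Sox2, a stem cell factor, was between 226 and 251 TPM in all 4 libraries. Fewer cells of a kind and less RNA per cell cannot be told apart in such bulk samples.

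Wnt7a was 55.1, 53.9 and 56.04 TPM in the 3 control libraries (labelled Ctrl_3, Setd8KD_1 and Setd8KD_2) and 43.6 in the knockdown library. Axin2 was 25.3, 26.3 and 25.9 TPM in the controls and 32.6 in the knockdown. Wnt7b was 94.3, 95.5 and 94.5 TPM in the controls and 107 in the knockdown. In each of these 3 genes the knockdown library lay outside the controls, as it did in 82.0% of all genes. With 1 knockdown library, the SE and p-values below rest on the spread of the 3 controls, and the lone library is assumed to vary like them. Nothing says that the libraries came from separate cultures, so p-values may measure technical spread only, and 41.7% of all genes were called in either direction. On these terms Wnt7a fell by 0.33 on the log2(TPM + 1) scale (SE 0.07, limma adjusted p = 0.0084 over 12703 genes), Axin2 rose by 0.33 (SE 0.08, limma adjusted p = 0.015) and Wnt7b rose by 0.18 (SE 0.06, limma adjusted p = 0.043). The call of Wnt7b was lost without the library labelled Setd8KD_1 (adjusted p = 0.12) or that labelled Setd8KD_2 (0.074), and in DESeq2 (0.068). With the libraries grouped by their labels instead, no gene passed limma's adjusted p of 0.05 (86 had an unadjusted p under 0.05), and none of the members passed either threshold. Axin2, Wnt7b, Sfrp2 and Lef1 overlap genes on the other strand in their exons, and the use of strand in counting is not given in the sources used here.

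The inhibitors did not pass the test. Sfrp1 was 3.83, 3.35 and 3.95 TPM in the controls and 3.29 in the knockdown (limma adjusted p = 0.53). Sfrp2 was 4.02, 4.02 and 5.43 TPM in the controls and 5.38 in the knockdown, within the control range (limma adjusted p = 0.36). Frzb (1.28, 1.02 and 0.640 TPM in the controls and 0.660 in the knockdown), Dkk3, Lef1 and Wnt8b were under the minimum mean of 1 TPM and were not tested. Frzb, Dkk3 and Lef1, all counted in the NSC-like cells of the DG, had at most 33 reads in any of these libraries, and Wnt8b had 1 read in 1 library.

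The 3 calls among 5 members tested stand beside those 41.7%, and 4 of these 5 members lay outside the control range. Over all the lists of the pathway, members among them, 29 of 65 genes tested were called (44.6%), a total share near the 41.7% of all genes. By direction 22 were higher and 7 lower, where 20.03% of all genes rose and 21.7% fell. The lists thus held more rises than falls, and this split was not tested. Of 18 receptors and co-receptors tested 5 rose, led by Reck (log2 change 0.87) and Ptk7 (0.86), and 2 fell, Fzd4 (−0.52) and Fzd10 (−0.37). Of 6 ligands tested 4 rose, among them Wnt4 (0.64), and Wnt7a fell. Both secretion factors rose, Wls from 222 to 230 TPM in the controls to 407 in the knockdown, and Porcn, which adds the lipid to Wnt ligands, by 0.34. In the R-spondin branch Rnf43 rose (0.84) and the receptor Lgr5 fell (−0.76), and of 7 feedback targets tested Axin2 and Tnfrsf19 (0.22) rose. Of 12 transducers tested 4 rose and 2 fell, Apc (−1.08) and Dvl2 (−0.49). Of 11 nuclear factors 4 rose and 1 fell. None of the 5 secreted inhibitors tested passed.

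**Figure D5:**
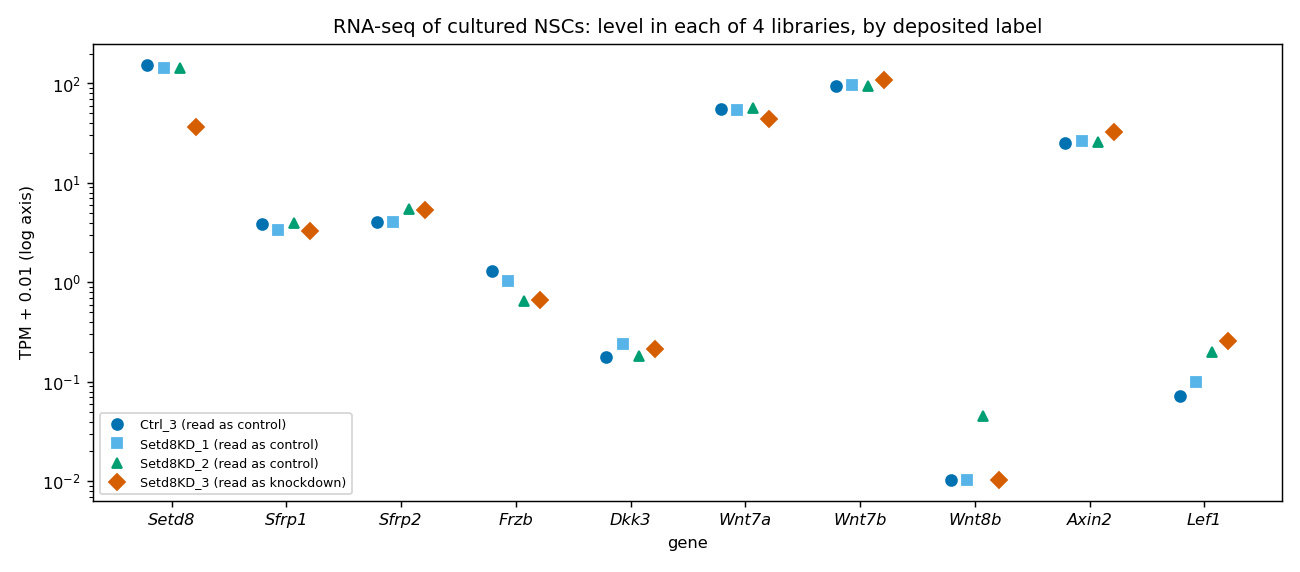
TPM + 0.01 (log axis) of Setd8 and the 9 genes in each of 4 RNA-seq libraries, named by their deposited labels. Setd8 is low in the library labelled Setd8KD_3, and Wnt7a, Wnt7b and Axin2 lie at 25 TPM or more in each library, far above Frzb, Dkk3, Wnt8b and Lef1.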

How the data were processed

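The authors aligned single-cell reads to mm10 with Cell Ranger 2.2.0 and deposited UMI counts per gene and barcode, counts per peak and barcode for the single-cell ATAC-seq, and TPM for the RNA-seq, in which 0.01 read had been added to every gene. Columns of the authors' own comparisons were not used (0 columns). Cells with at least 1000 UMIs, 500 genes and at most 10% mitochondrial counts were kept and doublets marked with scanpy 1.11.5 were left out (752, 85 and 2, the caller having marked few at 24w). They were clustered with Seurat 5.3.0 (2000 variable genes, 30 dimensions, resolution 0.8) without 97 pathway genes and named by markers. ATAC cells (3000 to 100000 counts) took labels by transfer from RNA of the same age (score of at least 0.5). The count of UMIs was pooled per class, and ratios have exact conditional binomial intervals.

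The authors' TPM values were tested with limma 3.58.1 on log2(TPM + 1) for genes with a mean of at least 1 TPM, with Benjamini-Hochberg adjustment. Reads recovered from TPM (2.004e+07 to 2.149e+07 per library) were whole within 0.02 for genes under 1000 reads and served edgeR 4.0.16 and DESeq2 1.42.0 as alternatives. On data simulated for the knockdown comparison (12703 genes), none of 50 genes changed 1.25-fold, 38% of those changed 1.5-fold and 98% of those changed 4-fold were called, and 15 of 117 calls were false. Those data held 50 changed genes at each fold, far fewer than the 5300 genes called in the real comparison. Neither the detection rates nor the false share therefore carries over to the members called. Their ratios to the control mean were 0.79 (Wnt7a), 1.26 (Axin2) and 1.13 (Wnt7b), changes close to or under the 1.25-fold size. Named genes were the members, at most 3 per pathway list and direction past the rule of size or adjusted p, and the 2 most alike genes of each member. The members and lists were chosen with earlier results of these data known. H4K20me1 and bulk ATAC-seq samples were not used here.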

Additional observations from a re-analysis of the deposited data

Results flagged for a closer look

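Frzb differed between classes in its direction with age, and this difference was not tested because each age is 1 library. Its ratio to P5 was 2.23 at 12w and 2.36 at 24w in NSC-like cells, 10.2 and 7.67 in AS-like cells, and 0.462 and 0.416 in NPC-like cells. The clusters within these classes differed in Frzb, as given above. Wnt8b in NSC-like cells moved in opposite directions in the adult libraries, with a ratio to P5 of 1.72 at 12w and 0.372 at 24w, the latter from 4 UMIs, and this was likewise not tested.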

How the results depend on the processing

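The knockdown count of 5300 genes became 2234 without the filter on low values, where 24062 genes were tested, and 0 with the libraries grouped by their labels. It ranged from 3977 to 5763 when each control library was left out in turn. The count of 3 members became 0 with the libraries grouped by their labels and ranged from 2 to 3 over the libraries left out. The age count of 2 members in NSC-like cells became 1 in cells thinned to 1000 UMIs and 1 against P5 cells of the same sex. It was 3 with free RNA subtracted (Sfrp2 added, lower), which was done in the adult libraries only and so can only lower the share of a gene rich in free RNA against P5, and 3 in the 24w library alone (Wnt8b added, lower), the latter chosen after seeing the data. Frzb and Dkk3 in NSC-like cells and Wnt7a, Wnt7b and Axin2 in the knockdown kept their direction under the alternatives run for them. No alternative was run for the calls in the other classes or of the pathway lists. The ratio of Sfrp2 in NSC-like cells at 12w, which was not called, went from 1.55 to 0.379 with free RNA subtracted from 12w and not from P5 and to 0.686 in thinned cells. Of the members' own values, with those of Setd8 among the knockdown changes, 41 knockdown changes, 126 levels and 103 ratios stayed on their side of the threshold or within their spread. In the same order, 7, 9 and 5 did not. No paired analysis was possible because the groups share fewer than 2 replicate numbers among the libraries with TPM. Wnt8b at 24w and the immature neurons of 24w rest on few UMIs, which limits what can be read there.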

Other observations

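In the vascular classes the members also differed between libraries. Values are given for P5, 12w and 24w in this order. Dkk3 in PC-like cells was 43.9 CPM (95% Poisson interval 36.7 to 52.1), 20.9 (17.0 to 25.5) and 12.9 (9.45 to 17.1), and in VSMC-like cells 31.3 (19.3 to 47.8), 6.91 (3.78 to 11.6) and 8.22 (3.76 to 15.6), opposite in direction to NSC-like cells. Lef1 in PC-like cells was 14.1 CPM (10.1 to 19.0), 25.6 (21.3 to 30.7) and 33.4 (27.7 to 39.8). Axin2 in VSMC-like cells stayed within overlapping intervals, at 38.7 CPM (25.3 to 56.7), 33.1 (25.6 to 42.0) and 37.5 (26.9 to 50.8). The PC-like clusters differed in their share of each library, one led by Spp1 holding 19, 1061 and 827 cells and one led by Tubb6 holding 176, 2 and 2. In the cluster led by Kcnj8, found at all 3 ages (278, 961 and 696 cells), Lef1 was 16.2 CPM (10.3 to 24.3), 20.6 (14.9 to 27.8) and 30.7 (22.9 to 40.2), with adult intervals that overlap that of P5, and Dkk3 was 44.3 (34.1 to 56.7), 24.01 (17.8 to 31.6) and 11.2 (6.75 to 17.5). These are values of 1 library per age and were not tested.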
